A study of Mus musculus with 3 samples.

Results

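Imprinted genes are transcribed mainly from the maternal or the paternal chromosome, according to DNA methylation laid down in the germ line. Their messenger RNAs were examined here for cytosines that resist bisulfite. The set comprised 10 mouse genes listed by name: Peg3, Igf2r, Grb10, Mest, Impact, Snrpn, Plagl1, Cdkn1c, Nnat and Zrsr1. Rows were assigned to a gene by the RefSeq accession of the transcript without its version. The 10 genes compare with 13224 named genes with a listed cytosine in any library. Of the 10, 9 had a listed cytosine and 7 had a testable one, meaning a coverage of at least 10 reads in all 3 libraries.

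The libraries came from mouse embryonic stem cells of J1 background with the labelled genotype Tet1-/-,Tet2-/-,Tet3-/-, the 3 genes of the enzymes that oxidise 5-methylcytosine. Cytosines of all 3 mRNAs were listed, 16, 19 and 18 of Tet1 in replicates 1, 2 and 3, 719, 652 and 632 of Tet2 and 448, 344 and 347 of Tet3. The deleted parts are not named in the labels, so these reads do not check the genotype. The cells had been kept on embryonic fibroblast feeders, which were depleted before harvest. The 3 samples form 1 group, no cells with intact Tet genes were analysed here, and the labels do not say whether the samples are separate cultures or how many clones they represent. Spread between them may therefore be technical. Replicates 1, 2 and 3 held a summed coverage of 151362866, 142608298 and 139884444 reads over cytosines, and their library-wide unconverted shares were 1.53%, 1.45% and 1.41%. Embryonic stem cell markers (11 of 11 listed) took 0.568% ± 0.0119 of the coverage and early differentiation markers (5 of 8 listed) 0.00441% ± 0.000548 (SD, n = 3).

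In imprinted clusters a differentially methylated region marks 1 parental allele, and zinc finger proteins with the corepressor Trim28 keep that mark through early development. The mark is on DNA. Bisulfite treatment of RNA reads a separate chemical state, the methylation of cytosines within the transcript itself, which enzymes such as Nsun2 deposit. Unmodified cytosines are read as thymine after conversion. A cytosine that stays unconverted may carry a methyl or hydroxymethyl group or may simply have escaped the reagent, and these cases cannot be told apart here. The tables carry no allele information, so a parental origin of the reads was not measured.

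Where the tabulated positions lie on the transcripts was examined at their first bases, since this part of a transcript could be set against a reference sequence. The stretches shown are from RefSeq on GRCm38.p6, with capitals marking the cytosines listed in the tables and with coordinates of that build, which differs from the mm9 named in the submitters' processing notes.
Peg3: CaggagtCgCgggaggaCgagCatCggagg
Zrsr1: gatCagaCataCtgC
Grb10: gcgCtgCga
The Peg3 stretch covers transcript positions 15 to 44 (chr7:6730376-6730405, minus strand), the Zrsr1 stretch positions 36 to 50 (chr11:22972040-22972054, plus strand) and the Grb10 stretch positions 42 to 50 (chr11:12037371-12037379, minus strand). All 7 listed Peg3 cytosines within the first 50 positions, all 4 of Zrsr1 and both of Grb10 fell on a cytosine of the reference. Counting from 1 at the annotated start thus placed them on cytosines. For Grb10 the start was chosen by this match, with 2 of 2 positions matching at the start shown and 0 of 2 at the other annotated one, so it is no check there. Over 1553 genes with 1 annotated transcript and 1 start, 88.5% of 17234 listed cytosines in the first 50 positions fell on a reference cytosine, and in 1290 genes all of them did.

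Every cytosine of the Peg3 stretch was listed, including 4 that are followed by guanine. In replicate 1, 0 of 10 reads were unconverted at position 22, 0 of 10 at position 24 and 0 of 11 at position 32. In replicate 2, the same positions had 0 of 7, 0 of 7 and 2 of 11. In replicate 3 they had 0 of 4, 0 of 4 and 0 of 7. Unconverted reads of this stretch thus appeared at a single position and in a single library. At Zrsr1 position 47, 1 of 6 reads was unconverted in replicate 1 and 0 of 5 in each of the others. The 2 Grb10 positions were listed in replicate 1 only, with 3 and 5 reads.

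How deeply each mRNA was read is described first, as it limits what could be seen. The genes together took 0.0885%, 0.0839% and 0.0779% of the summed coverage in replicates 1, 2 and 3, a mean of 0.0835% ± 0.00529 (SD, n = 3). In a bulk sample, fewer cells with a transcript and less transcript per cell cannot be told apart. Embryonic fibroblasts also express several of these genes, and fibroblast markers took 0.0694% ± 0.0092 of the coverage, with a range of 0.0604% to 0.0788%. Of 12 fibroblast markers, 8 were listed, while the matrix genes Dcn (itself imprinted in placenta), Lum and Postn and the limb mesenchyme factor Prrx1 were not. Both sets were highest in replicate 1 and lowest in replicate 3. The same order held for the other imprinted genes counted below (0.116%, 0.112% and 0.109%). It also held for the genes that keep or set imprints (0.598%, 0.590% and 0.587%). Embryonic stem cell markers (0.579%, 0.555% and 0.570%) and early differentiation markers were lowest in replicate 2. The part of feeder RNA in the coverage of the imprinted genes was not tested.

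Among the genes expressed from the paternal allele, Impact, a regulator of the translational stress kinase Gcn2, had a mean coverage per listed cytosine of 40.8, 41.2 and 36.3 reads in replicates 1, 2 and 3. This is a level per cytosine and not a sum over the transcript. Peg3, a large zinc finger protein, had 31.5, 31.5 and 27.2 reads on the same scale. Its range lay below that of Impact. Zrsr1, an intronless relative of the splicing factor gene Zrsr2, had 14.9, 16.5 and 14.0 reads, and reads that it shares with such a relative could not be placed with certainty. Plagl1, a zinc finger factor that slows growth, had 9.18, 10.5 and 8.55 reads.

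Mest, which encodes an enzyme of the alpha/beta-hydrolase fold, was listed under 2 transcripts. NM_008590.2 had the highest level of the set, 46.1, 33.2 and 41.9 reads, but only between positions 182 and 350. NM_001252292.1 had 6.96, 7.58 and 7.0 reads between positions 231 and 357. Nnat, a small membrane proteolipid of neural and endocrine cells, was listed under 3 transcripts. Their levels were at most 6.42 reads per cytosine in any library, and NM_001291128.1 had no listed cytosine in replicate 1. No row was assigned to Snrpn, which encodes a core protein of spliceosomal particles and for which the annotation gives 9 curated transcripts. No row was assigned either to Snurf, which shares its locus, so neither was measured here.

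Of the genes expressed from the maternal allele in most tissues, Igf2r, the receptor that carries insulin-like growth factor 2 to lysosomes, had 28.4, 22.8 and 22.7 reads per listed cytosine. Grb10, an adaptor that restrains insulin receptor signalling, had 18.4, 14.2 and 17.2 reads. Cdkn1c, an inhibitor of cyclin-dependent kinases, stood near the lowest coverage that the tables list, which is 3 reads. Its transcript NM_001161624.1 had 4.10, 3.0 and 3.74 reads over 31, 7 and 39 listed cytosines, and NM_009876.4 had 3.89, 3.0 and 3.0 over 19, 5 and 18. Since nothing below 3 reads is listed, these means cannot fall further, and they overstate the level of weakly covered transcripts.

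Ordered by this level, Mest (NM_008590.2) and Impact came first, at 40.4 ± 6.57 and 39.4 ± 2.73 reads (SD, n = 3), and their ranges overlapped. Peg3 (30.1 ± 2.47) and Igf2r (24.6 ± 3.29) followed with overlapping ranges, then Grb10 (16.6 ± 2.18) and Zrsr1 (15.1 ± 1.26), again overlapping. Plagl1 (9.42 ± 1.01) lay apart from its neighbours on both sides. The transcripts of Nnat and Cdkn1c overlapped each other in sequence down to 3.30 ± 0.517. Among 12708 transcripts listed in all 3 libraries, Mest, Impact, Peg3 and Igf2r stood at the 86.0th, 85.6th, 80.6th and 76.2nd percentile, Zrsr1 at the 62.5th and Plagl1 at the 45.6th.

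**Figure D1:**
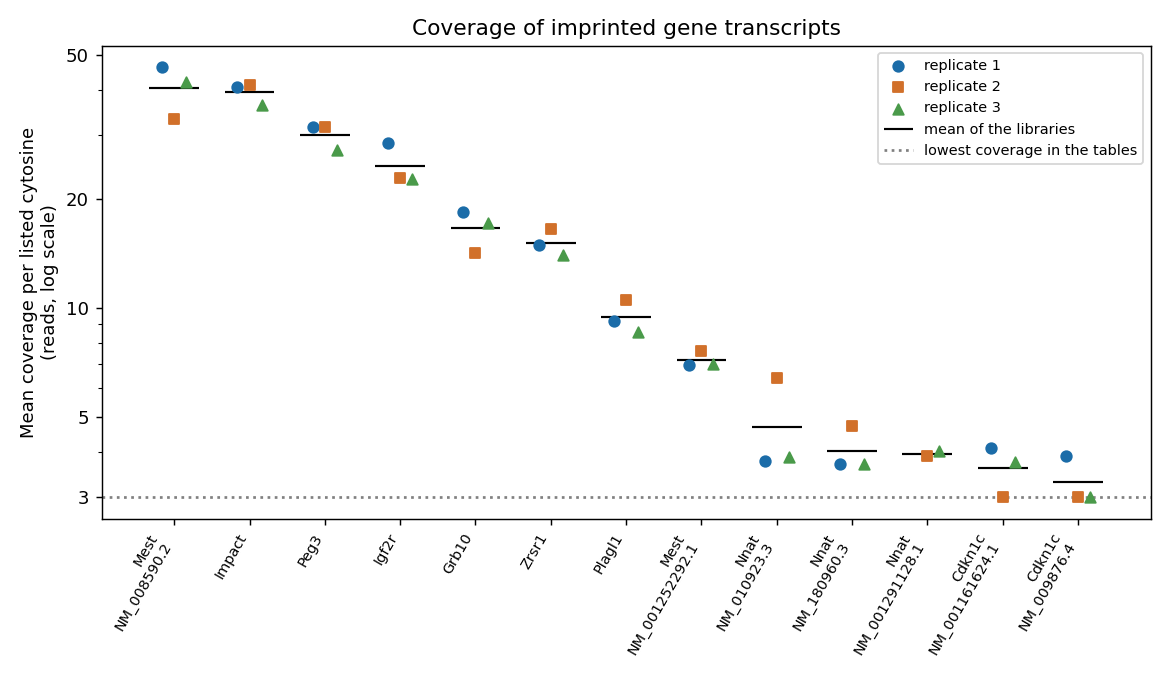
Mean coverage per listed cytosine (reads, log scale) of the 13 listed transcripts of 9 imprinted genes, with 1 point per replicate, a bar at the mean of the libraries that list the transcript, and a dotted line at the lowest coverage in the tables. Mest (NM_008590.2) and Impact stand highest, and the transcripts of Nnat and Cdkn1c lie close to the dotted line.

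The length over which an mRNA could be read differed more than its level. Igf2r, Peg3 and Zrsr1 have 1 curated transcript each in the annotation, and their listed cytosines ran from position 70 to 8829, 15 to 6620 and 39 to 3158. Igf2r had 1989, 1942 and 1934 listed cytosines in replicates 1, 2 and 3, Peg3 had 1191, 1176 and 1133, and Zrsr1 had 530, 514 and 501. Impact (2 curated transcripts, 1 listed) ran from 22 to 3246, with 595, 547 and 576 listed cytosines. Grb10 (3 curated transcripts, 1 listed) ran from 45 to 920 and had none between 276 and 698. Mest (3 curated transcripts), Cdkn1c (3) and Nnat (5) were listed over at most 169 nt of any transcript. Impact and Plagl1 (4 curated transcripts, 1 listed) were exceptions to this short listing. Plagl1 ran from 147 to 5208 with 325, 352 and 309 listed cytosines. Whether reads common to several transcripts are missing from the tables was not tested. Low coverage of a gene with several transcripts was therefore not read as low expression.

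Within the long transcripts, coverage rose and fell at the same places in all libraries. Across cytosines listed in all 3, Pearson's r of log2 coverage between libraries was 0.942 to 0.947 in Peg3 (1053 cytosines), 0.939 to 0.956 in Impact (533), 0.878 to 0.898 in Igf2r (1822), 0.805 to 0.913 in Zrsr1 (450) and 0.717 to 0.804 in Plagl1 (197). These values describe cytosines that share reads and give no test. The median coverage of Peg3 was 35, 44 and 27 reads at positions 1001 to 1500 in replicates 1, 2 and 3. It was 7, 3 and 1.5 reads at 2501 to 3000, and no cytosine was listed between 5040 and 5736. In Zrsr1 the bin from 1501 to 2000 had a median of 28.5, 36 and 28.5 reads, whereas the bins on either side had at most 8. In Impact the highest bin median was at its end, with 64, 55.5 and 56.5 reads from 3001. The deepest single cytosine of Impact was position 157, with 375, 394 and 310 reads. Igf2r was covered more evenly, its highest bin being the first 500 positions with 36, 28 and 31 reads. Plagl1 had no listed cytosine between 3705 and 5150.

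**Figure D2:**
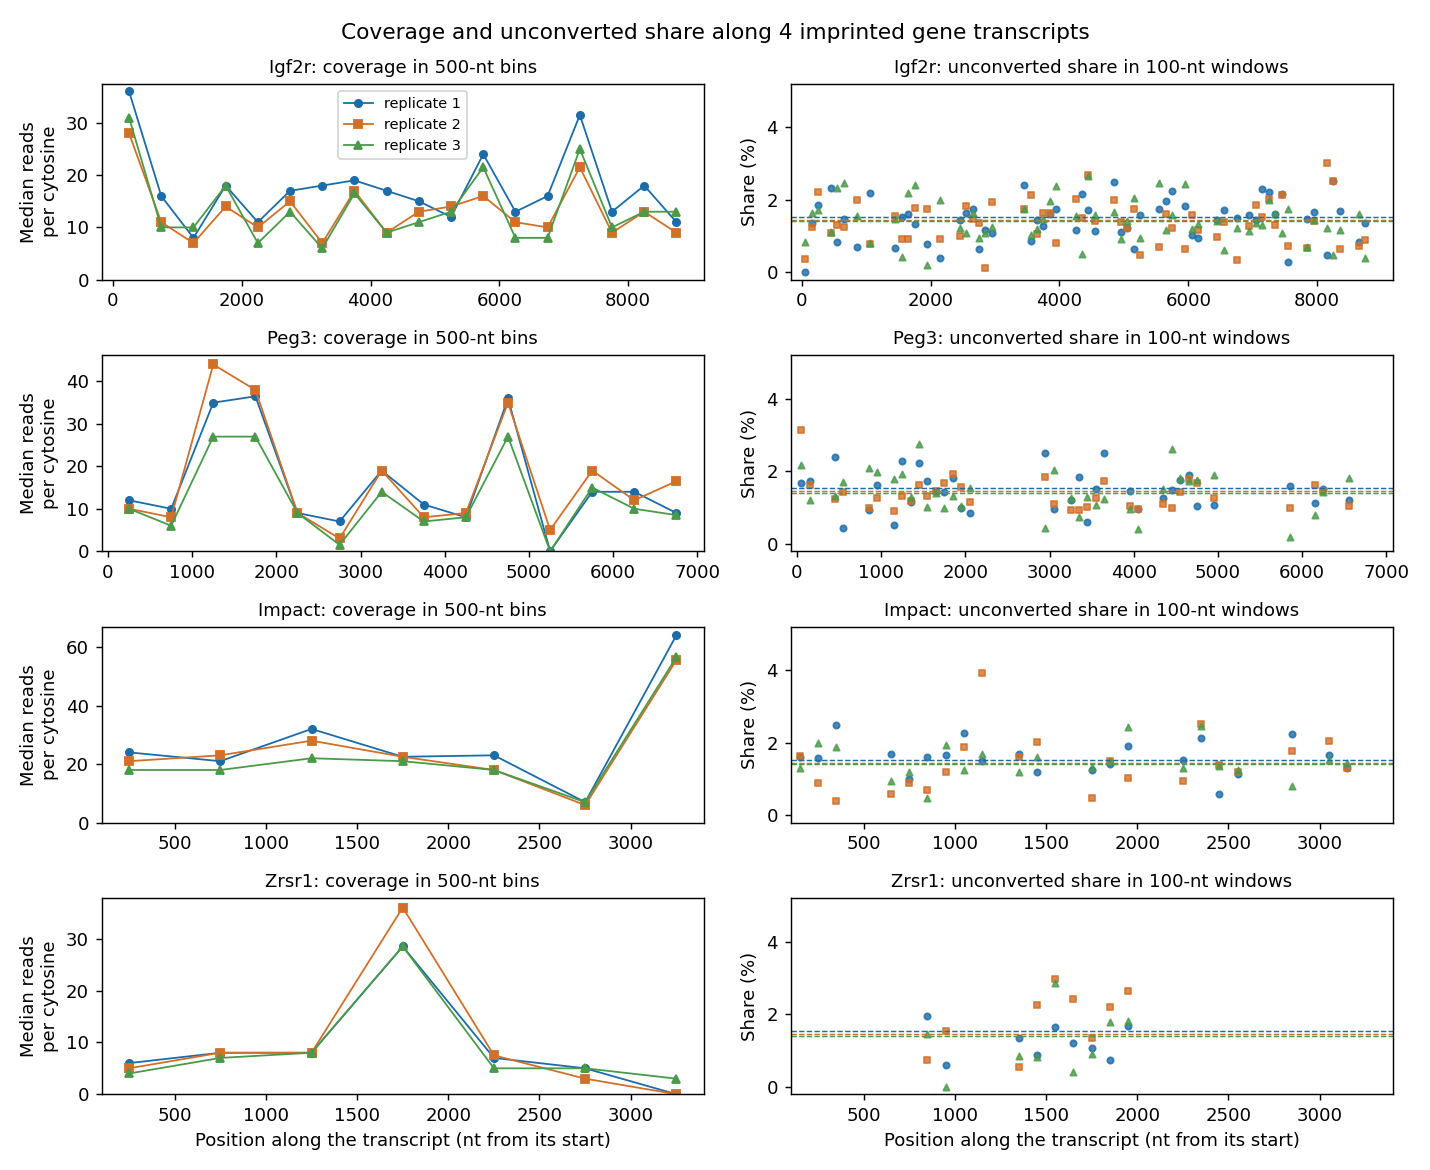
Left, median coverage per listed cytosine (reads) in bins of 500 nt, and right, unconverted share (%) in windows of 100 nt with a summed coverage of at least 200 in every library, against the position along the Igf2r, Peg3, Impact and Zrsr1 transcripts, with 1 symbol per replicate and dashed lines at each library-wide share. The coverage peaks of the replicates coincide, while the shares scatter around the dashed lines.

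Whether any of these mRNAs was less converted as a whole was asked next. The unconverted share of reads over listed cytosines was 1.50%, 1.47% and 1.49% in Igf2r in replicates 1, 2 and 3, or 1.49% ± 0.0136 (SD, n = 3). In Peg3 it was 1.44%, 1.40% and 1.40%, or 1.41% ± 0.0234. In Impact it was 1.54%, 1.42% and 1.39%, or 1.45% ± 0.0832. These 3 mRNAs thus stood close to the library-wide shares in each library, Peg3 being below them in all 3. The less deeply read mRNAs spread more widely around them. Zrsr1 had 1.19%, 1.57% and 1.27%, Plagl1 1.78%, 1.19% and 1.44%, Grb10 1.63%, 1.24% and 1.19%, and Mest (NM_008590.2) 1.21%, 1.62% and 1.63%. Of these 4, none lay on 1 side of the library-wide share in all libraries.

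The share of each transcript was tested against the library-wide share with limma. Its error is the spread between the 3 libraries, drawn toward a trend on coverage fitted over all transcripts tested. The intervals and p-values therefore do not rest on the transcript's own spread alone. Of 7421 transcripts with a summed coverage of at least 1000 in every library, 7.55% were called higher and 6.76% lower at an adjusted p below 0.05. Of the 7 imprinted transcripts that could be tested, 0 were called in either direction, and 0 had an unadjusted p below 0.05, against 26.5% of all transcripts tested. The largest difference was that of Zrsr1, at -0.13 on the log2 scale (SE 0.0808, adjusted p = 0.332), a ratio of 0.915 with a 95% interval of 0.816 to 1.03. It was -0.01 without replicate 1 and -0.25 without replicate 2, the latter with an unadjusted p of 0.00904 and an adjusted p of 0.0761 in limma. For Igf2r the ratio to the library was 1.02 (0.973 to 1.06), for Impact 0.992 (0.932 to 1.06) and for Peg3 0.967 (0.919 to 1.02). The intervals were wider for Grb10 (0.75 to 1.17), Mest (0.816 to 1.30) and Plagl1 (0.844 to 1.19). The median log2 difference was -0.01 over the 7, with 3 above and 4 below the library, and -0.0041 over all transcripts tested.

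**Figure D3:**
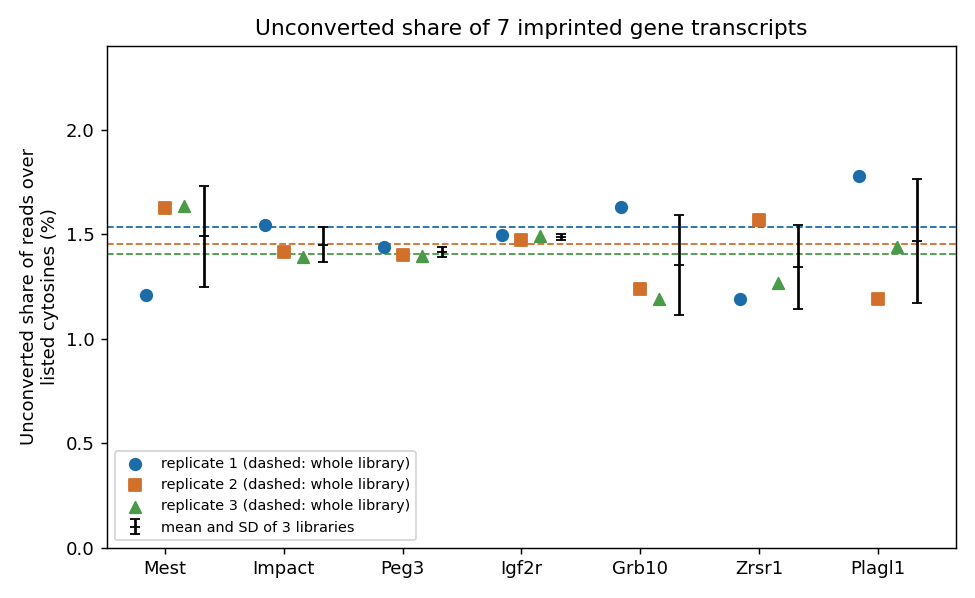
Unconverted share of reads over listed cytosines (%) of the 7 imprinted gene transcripts with a summed coverage of at least 1000 in every library, with 1 symbol per replicate, dashed lines at the library-wide shares (1.53%, 1.45% and 1.41%) and the mean and SD of the 3 libraries in black. Igf2r, Peg3 and Impact lie close to the lines, and the 4 transcripts with less coverage spread around them.

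Mest NM_001252292.1, Nnat and Cdkn1c had too few reads for this test. Over the 3 libraries together, Mest NM_001252292.1 had 1.13% unconverted (95% Wilson interval 0.519% to 2.44%). Nnat NM_010923.3 had 1.28% (0.437% to 3.70%) and Cdkn1c NM_001161624.1 had 1.36% (0.530% to 3.45%). The most deeply covered Nnat cytosine, position 270 of NM_010923.3, had 0 unconverted among 17 reads, which allows a share of up to 17.6%. That of Cdkn1c, position 213 of NM_001161624.1, had 0 among 15, which allows up to 20%. Such intervals and limits cover counting error only. The intervals of whole transcripts sum over neighbouring cytosines that share reads, so they are too narrow even for that.

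Single cytosines were then tested. The unconverted reads of each were set against the library-wide share by a one-sided exact binomial test in each library. Fisher's method joined the 3 p-values, which were adjusted over all 1639820 testable cytosines of the series. A candidate had an adjusted p below 0.05, at least 10% unconverted reads on average, and more than the library-wide share in each library. Of all testable cytosines 0.0473% were candidates. The imprinted mRNAs had 2442 testable cytosines: 1068 in Igf2r, 668 in Peg3, 407 in Impact, 175 in Zrsr1, 60 in Plagl1, 45 in Grb10 and 19 in Mest. None was a candidate by the binomial test. The count by the beta-binomial test was 0 as well. An unadjusted combined p below 0.05 was found at 59 of the 2442 (2.42%), against 3.32% of all testable cytosines. Depth was not matched between the set and the series.

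Without the level minimum, 3 cytosines of the imprinted mRNAs had an adjusted p below 0.05 and a share above the library's in each library. They lay in Igf2r, Impact and Zrsr1. This was 0.123%, against 0.469% of all testable cytosines, with depth again not matched. Peg3, Plagl1, Grb10 and Mest had 0, by the binomial test and by the beta-binomial test, with 11, 1, 2 and 0 cytosines at an unadjusted combined p below 0.05.

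Igf2r position 3490 was unconverted in 11 of 80 reads in replicate 1, 5 of 81 in replicate 2 and 6 of 92 in replicate 3. The mean was 8.81% ± 4.28 (SD, n = 3; adjusted p = 2.45e-07, binomial tests combined by Fisher's method). All libraries stood above their background, replicate 1 highest, and without it the share was 6.35% and the adjusted p 0.051 in the same exact binomial test. Coverage ended abruptly just after this cytosine. It was 255 reads over the 3 libraries at position 3487 and 253 at 3490, and 52 at 3494, the next listed cytosine. At 3487, 0 of the 255 reads were unconverted. The other 28 listed cytosines within 50 nt had a share of 1.50% ± 0.159 (SD, n = 3). Of all testable cytosines, 3.31% had a listed cytosine within 10 nt with less than 0.5 times their coverage, against 8.70% of those past the adjusted p. The part of this step in the result was not tested.

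Impact position 1045 was unconverted in 6 of 108, 9 of 101 and 5 of 94 reads, or 6.60% ± 2.01 (SD, n = 3; adjusted p = 0.000164, binomial tests combined by Fisher's method). The 3 libraries gave similar shares, between 5.32% and 8.91%. Coverage was even here, with 263, 303, 286 and 283 reads at positions 1037, 1045, 1051 and 1052, of which 2, 20, 2 and 3 were unconverted. The excess was therefore seen at 1 cytosine and not at its listed neighbours. Without replicate 2, which had the most unconverted reads, the adjusted p of the same exact binomial test was 0.168.

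Zrsr1 position 1922 was unconverted in 2 of 42, 5 of 56 and 4 of 48 reads, or 7.34% ± 2.25 (SD, n = 3; adjusted p = 0.0231, binomial tests combined by Fisher's method). At position 1926 it was 6 of 129 reads over the 3 libraries, and at 1917 3 of 137. The other 17 listed cytosines within 50 nt had 1.87% ± 0.786. By the beta-binomial test the adjusted p was 0.145, and leaving out replicate 2 or 3 gave 0.569 and 0.285 in the exact binomial test.

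Another cytosine, Impact position 1837, had an adjusted p of 0.0293 by the combined binomial tests but was not above the library in each replicate. It had 3 of 40, 0 of 40 and 6 of 47 unconverted reads. Coverage fell steadily across it, from 318 reads over the 3 libraries at position 1824 to 79 at 1847. When the least significant of the 3 libraries decided, none of these 4 cytosines passed in the exact binomial test (adjusted p of 1 for each).

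**Figure D4:**
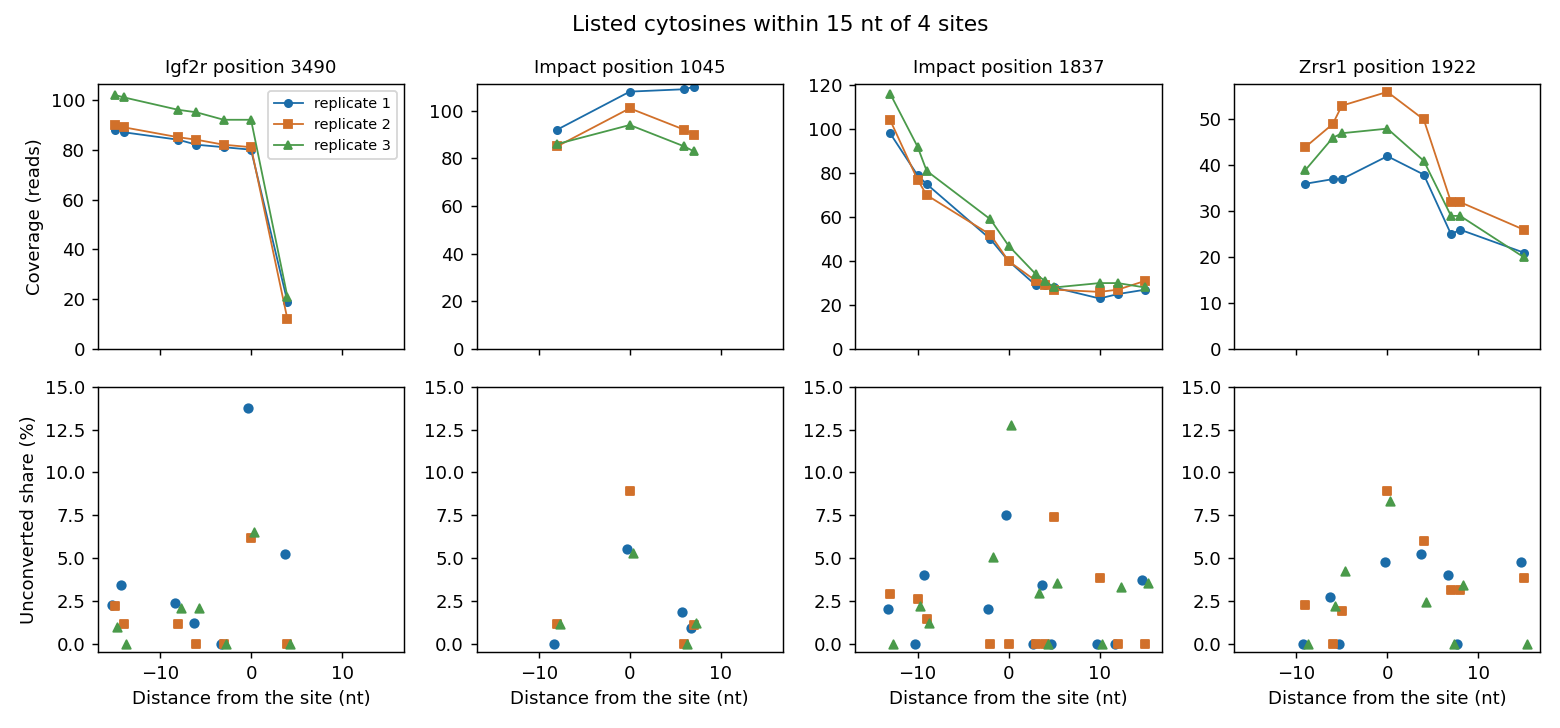
Coverage (top, reads) and unconverted share (bottom, %) of the listed cytosines within 15 nt of Igf2r 3490, Impact 1045, Impact 1837 and Zrsr1 1922 against the distance from that cytosine, with 1 symbol per replicate. Coverage drops just after Igf2r 3490 in all replicates and stays level around Impact 1045.

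The highest mean share in the set was that of Impact position 261, at 12.1% ± 21.0 (SD, n = 3). It rested on 1 library, with 0 of 13, 0 of 15 and 4 of 11 unconverted reads (adjusted p = 0.134, binomial tests combined by Fisher's method). The highest cytosine of Igf2r was position 305, with 1 of 18, 2 of 28 and 2 of 13 reads, and that of Peg3 was position 3647, with 2 of 16, 2 of 25 and 1 of 21. Plagl1 position 882 had 3 of 15, 0 of 15 and 0 of 19. Grb10 position 219 had 3 of 39, 2 of 27 and 0 of 25, and Mest position 270 had 3 of 165, 5 of 138 and 4 of 129. The last 5 had adjusted p-values of 0.639 to 1 in the combined exact binomial tests. The 76 cytosines with a mean share of 5% or more had a median mean coverage of 18.7 reads (10 to 101), against 28 over all 2442.

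**Figure D5:**
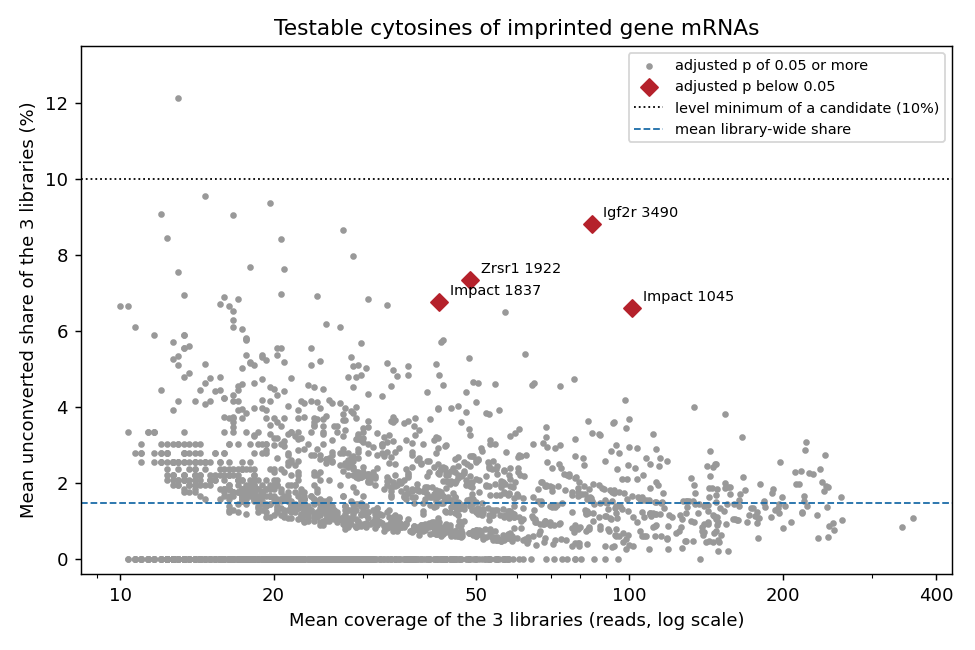
Mean unconverted share (%) against mean coverage (reads, log scale) of the 2442 testable cytosines of imprinted gene mRNAs, over 3 libraries, with red diamonds for an adjusted p below 0.05, a dotted line at the level minimum of 10% and a dashed line at the mean library-wide share. A single cytosine, with a mean coverage of 13 reads, lies above the dotted line.

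The most deeply covered cytosines of the same mRNAs set a tighter limit. Impact position 157 was unconverted in 6 of 375, 4 of 394 and 2 of 310 reads, or 1.11% of 1079 reads (95% Wilson interval 0.637% to 1.93%). Peg3 position 1352 had 0 of 273, 5 of 294 and 3 of 218, Igf2r position 3724 had 3 of 253, 7 of 219 and 5 of 216, and Zrsr1 position 1735 had 2 of 150, 1 of 171 and 0 of 132. Over the 3 libraries these were 1.02% (0.517% to 2.0%), 2.18% (1.33% to 3.57%) and 0.662% (0.225% to 1.93%). Mest position 282 had 2 of 447 reads, Grb10 position 184 had 2 of 209 and Plagl1 position 1069 had 1 of 165. At the median testable coverage of 33, 30 and 29 reads per library, a count of 0 allows a share of up to 9.09%, 10.0% and 10.3% in a single library. Over the 3 libraries together, the median testable cytosine of the imprinted mRNAs had 84 reads, at which a count of 0 allows up to 3.57%.

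At 780 of the 2442 testable cytosines (31.9%) no unconverted read was seen in any library, against 28.6% of all testable cytosines. At 284 (11.6%) one was seen in each, against 17.6%, with a median mean coverage of 28 reads in the set and 30.3 in the series. Depth was not matched in these comparisons. Of the 2442, 447 had 50 reads or more in each library, against 441931 of 1639820 in the series. A mean share of 5% or more was found at 76 (3.11%), against 3.17% of all testable cytosines. Between libraries, Pearson's r of the shares was 0.037 to 0.0662 over the 2442 cytosines, against 0.0915 to 0.0929 over all testable ones. It was 0.244 to 0.301 over the 447 with 50 reads or more in each library, against 0.269 to 0.275 over all 441931 such cytosines. These are descriptions over cytosines that share reads. Cytosines with a listed cytosine directly beside them (1114) had a share of 1.36% ± 0.0371, and those without (1328) had 1.50% ± 0.0433 (SD, n = 3). The shares were 1.38%, 1.32% and 1.39% with a neighbour and 1.55%, 1.50% and 1.46% without, so the second group was higher in 3 of 3 libraries. Over all testable cytosines the 2 means were 1.41% ± 0.0659 and 1.50% ± 0.0625. For the 10 genes, 180 cytosines had a lowest coverage of exactly 10 reads and 200 of exactly 9, with 1.35% and 1.10% of their reads unconverted.

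Stretches of the mRNAs were compared with the library in windows of 100 nt. Of 81498 windows with a summed coverage of at least 200 in every library, limma called 1.56% higher and 1.79% lower. Of 129 windows in the imprinted mRNAs (58 in Igf2r, 35 in Peg3, 22 in Impact, 9 in Zrsr1, 2 each in Plagl1 and Grb10, 1 in Mest) 0 were called, and 14 (10.9%) had an unadjusted p below 0.05, against 17.3% of all windows. Their mean shares ran from 0.409% to 2.49%, with a median of 1.42%. The windows named next were chosen after their values were seen. Their counts are summed over the listed cytosines of a window, so a read counts once at each cytosine it covers. Positions 1 to 100 of Igf2r had 0 of 532, 1 of 262 and 3 of 355 reads unconverted, a log2 difference of -1.96 from the library (SE 0.521, adjusted p = 0.0614 with limma). Positions 4401 to 4500 of Igf2r had 21 of 1216, 28 of 1042 and 21 of 789, at 0.69 (SE 0.213, adjusted p = 0.107 with limma). Positions 2301 to 2400 of Impact had 8 of 377, 11 of 437 and 10 of 406, at 0.76 (SE 0.302, adjusted p = 0.212 with limma).

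Other imprinted genes and hosts of imprinted transcripts were counted over a list of 64, of which 37 had a listed cytosine and 23 a testable one. The noncoding Airn, H19 and Meg3 were not among them, as all transcripts of the tables are protein-coding. Of 2656 testable cytosines, 1 was a candidate, against 0.0473% of all testable cytosines. The adjusted p with a share above the library in each replicate was passed by 5 (0.188%), against 0.469%. Phlda2, a maternally expressed gene that limits placental growth, had the highest mean coverage per listed cytosine, 105 ± 4.51 reads, followed by the tetraspanin gene Cd81 (70.1 ± 5.59), the amino acid transporter gene Slc38a4 (46.0 ± 2.61) and Commd1 (44.4 ± 4.14), whose intron holds Zrsr1 (SD, n = 3). The candidate, Cd81 position 1215, had 1 of 37, 1 of 19 and 6 of 20 unconverted reads, a mean of 12.7% ± 15.1 that rested mostly on replicate 3. Cd81 position 491 had 9 of 111, 7 of 99 and 5 of 85, or 7.02% ± 1.11 (adjusted p = 4.47e-05, binomial tests combined by Fisher's method).

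Of the 18 transcripts of the list tested as a whole with limma, 2 were called lower, in Phlda2 and H13, and 0 higher. Of all transcripts tested, 6.76% were called lower and 7.55% higher. An unadjusted p below 0.05 was found for 4 of the 18 (22.2%), against 26.5% of all transcripts. Without limma's variance trend both calls ended, with adjusted p-values of 0.175 for Phlda2 and 0.211 for H13. Phlda2 had 0.885 times the share of the library (95% interval 0.831 to 0.943, adjusted p = 0.00654 with limma). The transcript NM_001159553.1 of H13, which encodes signal peptide peptidase and has several listed transcripts that may split its reads, had 0.729 times (0.627 to 0.848, adjusted p = 0.00331 with limma). Without replicate 3 its log2 difference went from -0.46 to -0.26, with an adjusted p of 0.156 in limma. Commd1, at 1.05 times (0.938 to 1.17), and Blcap, the host gene of Nnat, at 0.950 (0.818 to 1.10), were not called, with adjusted p-values of 0.646 and 0.712 with limma. The median log2 difference of the 18 was -0.07, with 13 below the library.

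Over all listed cytosines, the shares were 1.48%, 1.43% and 1.42% for the 10 genes and 1.47%, 1.38% and 1.34% for the list of 64. The 10 genes were thus higher in 3 of 3 libraries, with means of 1.44% ± 0.0268 and 1.40% ± 0.0661 (SD, n = 3), and the difference was not tested.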

How the data were processed

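Poly(A)+ RNA was fragmented, treated with DNase, bisulfite-converted and sequenced as paired-end reads, per the labels' protocols. BSMAP and the build mm9 are named in the submitters' processing notes. The sources used here name no version, counting step or annotation. Per the file headers, the deposited tables give the coverage of each mRNA cytosine as a raw count of reads, and as a fraction how much of it was unconverted. The product was whole, within 1e-06, at all listed cytosines and was taken as unconverted reads. Of 15021 transcripts, 14932 were matched to a symbol in the GRCm38.p6 annotation. That build was used for names, neighbours, numbers of curated transcripts, and the sequence and coordinates of first bases. Single cytosines were tested with scipy 1.17.1. Transcripts and 100-nt windows were tested with limma 3.58.1 in R 4.3.3, on log2 of (unconverted reads + 0.5)/(coverage + 1) minus log2 of the library-wide share, with a variance trend on coverage. All p-values were adjusted by Benjamini-Hochberg over the whole series. Binomial p-values take reads as independent; copies made by PCR carry no molecular identifiers. The scripts were tested on simulated data. Those counts were drawn independently at the library-wide share, apart from planted changes, so spread beyond counting error was not simulated. Members, lists and tests were chosen with earlier results of these data known. Named were, per gene, the cytosines with the highest share, the deepest coverage and an adjusted p below 0.05, and of the other imprinted genes the 4 most covered, those with a candidate and the called transcripts; other names are marked. Coding sequences were not placed on the transcripts, for want of protein sequences.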

Additional observations from a re-analysis of the deposited data

How the results depend on the processing

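No paired analysis was possible because the 3 samples form 1 group. The number of candidates in the imprinted mRNAs stayed at 0 with a coverage minimum of 20 or 5 reads, the transcript's own background, the p-value of the least significant library alone, the beta-binomial test and a level minimum of 20%. It was 3 with a level minimum of 5% (0.123%, against 0.203% of all testable cytosines), and 0 to 2 on leaving out 1 replicate. The 2 were Igf2r 3490 and Impact 1837, without replicate 2 (0.0768% against 0.0428%). Cytosines past the adjusted p numbered 3, 2 to 4 under the other settings, and 0 when the least significant library decided, which left 661 in the series against 7694. The 4, at a coverage minimum of 20 reads, were 0.290% against 0.816% of all testable cytosines. The 2 were 0.0819% against 0.149% by the beta-binomial test. On leaving out 1 replicate they were 0.0724% to 0.0796% against 0.278% to 0.305%. The transcript test called 0 imprinted mRNAs under every alternative run. Without the variance trend limma called 0 of 7421 transcripts in all, against 1062, and 0 of 81498 windows against 2732. The cause was not tested. Imprinted windows called numbered 10, all higher, or 7.75% against 12.7% of all windows, with a pseudocount of 2 reads, which by construction moves thinly covered windows up. They numbered 1 with no coverage minimum (Igf2r 1 to 100, lower), or 0.415% against 3.03%, and 0 to 3 on leaving out 1 replicate, the 3 (2.13% against 2.44%) being lower without replicate 3. Log2 differences near 0 changed sign. With only testable cytosines Mest had -0.18 and Plagl1 -0.090, and with median centring Plagl1 had -0.00082. Leaving out 1 replicate gave -0.062 to 0.22 for Mest, -0.11 to 0.14 for Plagl1 and -0.0058 to 0.054 for Igf2r, and for Zrsr1, with no change of sign, -0.25 to -0.012. The coverage of the set and the library-wide share moved by less than their SD under all alternatives run. On leaving out 1 of 3 replicates this holds by construction, so it is no check there. Levels per cytosine were also taken over cytosines listed in all 3 libraries only. Those of Mest (NM_008590.2, 50.5 reads), Peg3 (32.9), Grb10 (19.9), Zrsr1 (16.6) and Plagl1 (12.9) then rose by more than their SD. Those of Impact (42.0) and Igf2r (26.1) rose by less. Depth limits what single cytosines can show, and Nnat, Cdkn1c and Snrpn could not be tested.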

Other observations

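Genes that keep or set imprints were counted over a list of 16, of which 14 had a listed and 10 a testable cytosine. Of 2974 testable cytosines, 3 were candidates (in Ctcf, Trim28 and Zfp445), against 0.0473% of all testable cytosines. The adjusted p with a share above the library in each replicate was passed by 105, or 3.53%, against 0.469%. Trim28 alone held 97 of the 105 and 0.519% ± 0.00531 of the coverage, out of 0.592% ± 0.00543 for the list (SD, n = 3). Its mean coverage per listed cytosine was 798 ± 41.7 reads (SD, n = 3), at the 99.4th percentile of 12708 transcripts. Depth was not matched in these counts. Without Trim28, 8 of 2046 testable cytosines passed (0.391%), and 1.48% ± 0.0813 of the reads were unconverted, against 1.65% ± 0.0678 in Trim28 (SD, n = 3). Of all transcripts tested with limma, 7.55% were called higher and 6.76% lower. Of the 7 of this list, Trim28 (1.12 times the library, 95% interval 1.11 to 1.14) and the remodelling helicase gene Hells (1.11, 1.04 to 1.18) were called higher. The imprint-binding zinc finger gene Zfp445 was called lower (0.904, 0.853 to 0.958). Their adjusted p-values with limma were 1.11e-17, 0.0194 and 0.0147, and 0.169, 0.228 and 0.210 without its variance trend. Leaving out replicate 1 ended the calls of Hells (adjusted p = 0.220 with limma) and Zfp445 (0.0803), and leaving out replicate 3 that of Zfp445 (0.0734).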
